A study of Mus musculus with 2 samples.

Results

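The genes described here encode the chains of integrins and laminins, the receptors and the ligands through which cells hold on to basement membranes and stroma. All gene symbols of the deposited tables that begin with Itga or Itgb followed by a digit or a single-letter code, or with Lama, Lamb or Lamc followed by a digit, were taken, which gave 38 of the 32285 genes in the files. They comprise 18 integrin alpha chains, 9 integrin beta chains and 11 laminin chains (5 alpha, 3 beta and 3 gamma). Symbols of integrin-binding proteins and of the integrin-like gene Itgbl1 were not counted.

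The cells came from mouse maxillary periodontium, the gum, ligament and bone around the upper teeth, and were profiled in 2 droplet libraries titled RP and 377P. The series title refers to the resolution of periodontitis in diabetes, but the labels give no strain, age, treatment or time for either library and do not say what the titles stand for, so neither was taken as a control. The RP library held 16721 cells and the 377P library 14515 cells after filtering. With 1 library per title there is no replicate and no test: levels are UMIs of a gene scaled to a total of 1000000 in a cell type (CPM; a UMI is the tag of 1 captured mRNA) with exact 95% Poisson intervals, and ratios are RP over 377P with exact 95% intervals that cover counting error only.

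An integrin is a pair of 1 alpha and 1 beta chain that spans the membrane, binds a matrix or cell-surface ligand outside the cell and couples it to the cytoskeleton through talins and kindlins. A laminin is a cross-shaped trimer of 1 alpha, 1 beta and 1 gamma chain that polymerises into the sheet on which epithelia, muscle, vessels and nerve sheaths rest. In the gum, the pair of alpha 6 and beta 4 chains anchors basal keratinocytes to laminin-332, a trimer that holds the Lama3 and Lamb3 products, at hemidesmosomes. The same attachment holds the junctional epithelium to the tooth.

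Cells were assigned to types one by one from lists of 8 marker genes, none of which is a member. The gates typed 12507 RP cells (74.8%) and 11554 cells of 377P (79.6%), and 13 types with at least 50 cells in each library were used. The types ranged from 125 neutrophils to 3759 fibroblasts in RP and from 96 neutrophils to 2625 fibroblasts in 377P. No marker of a type's own list was at 0 in that type. The type called gland or respiratory epithelium was led by Scgb1c1, Bpifb3 and Lcn3, which are secretory genes, and by none of its own markers, so its name rests on the gate alone. The libraries shared 82 barcodes, which is 0.453% of those of RP and 0.530% of those of 377P. RNA of keratinocytes was counted in types that should lack it: Krt14, a keratin of basal keratinocytes, was found at 494 to 699 CPM in the blood endothelium, fibroblasts, mural cells, T or NK cells, B cells and macrophages of RP and at 836 to 1151 CPM in those of 377P. A chain at a low and similar level in many types is read as background for that reason.

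Of the 38 genes, 36 had at least 50 UMIs over both libraries and are described by cell type. The remaining genes, Itgad (22 UMIs) and Itgb2l (31 UMIs), encode a leukocyte alpha chain and a relative of the leukocyte beta 2 chain, and 3 and 11 of the UMIs of Itgb2l lay in the neutrophils of RP and 377P. The cell type with the highest level was the same in both libraries for 28 of the 36. The lead over the next type was at least 2-fold in both libraries for 5 genes. For some of the others it was within counting error, as for Lamb2 (1.07-fold, 0.925 to 1.245, in RP and 1.17-fold, 0.980 to 1.39, in 377P). Basal keratinocytes led for 7 genes, fibroblasts, smooth muscle and lymphatic endothelium for 4 each, Schwann cells and neutrophils for 2 each, and pericytes, blood endothelium, T or NK cells, B cells and macrophages for 1 each. Across the 13 types, the log2(CPM + 1) profile of a gene in RP and that in 377P had a median Pearson correlation of 0.935, and the lowest, -0.22, belonged to the scarce Lama1. These coefficients describe profiles of 13 types that share each library's depth and free RNA.

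**Figure D1:**
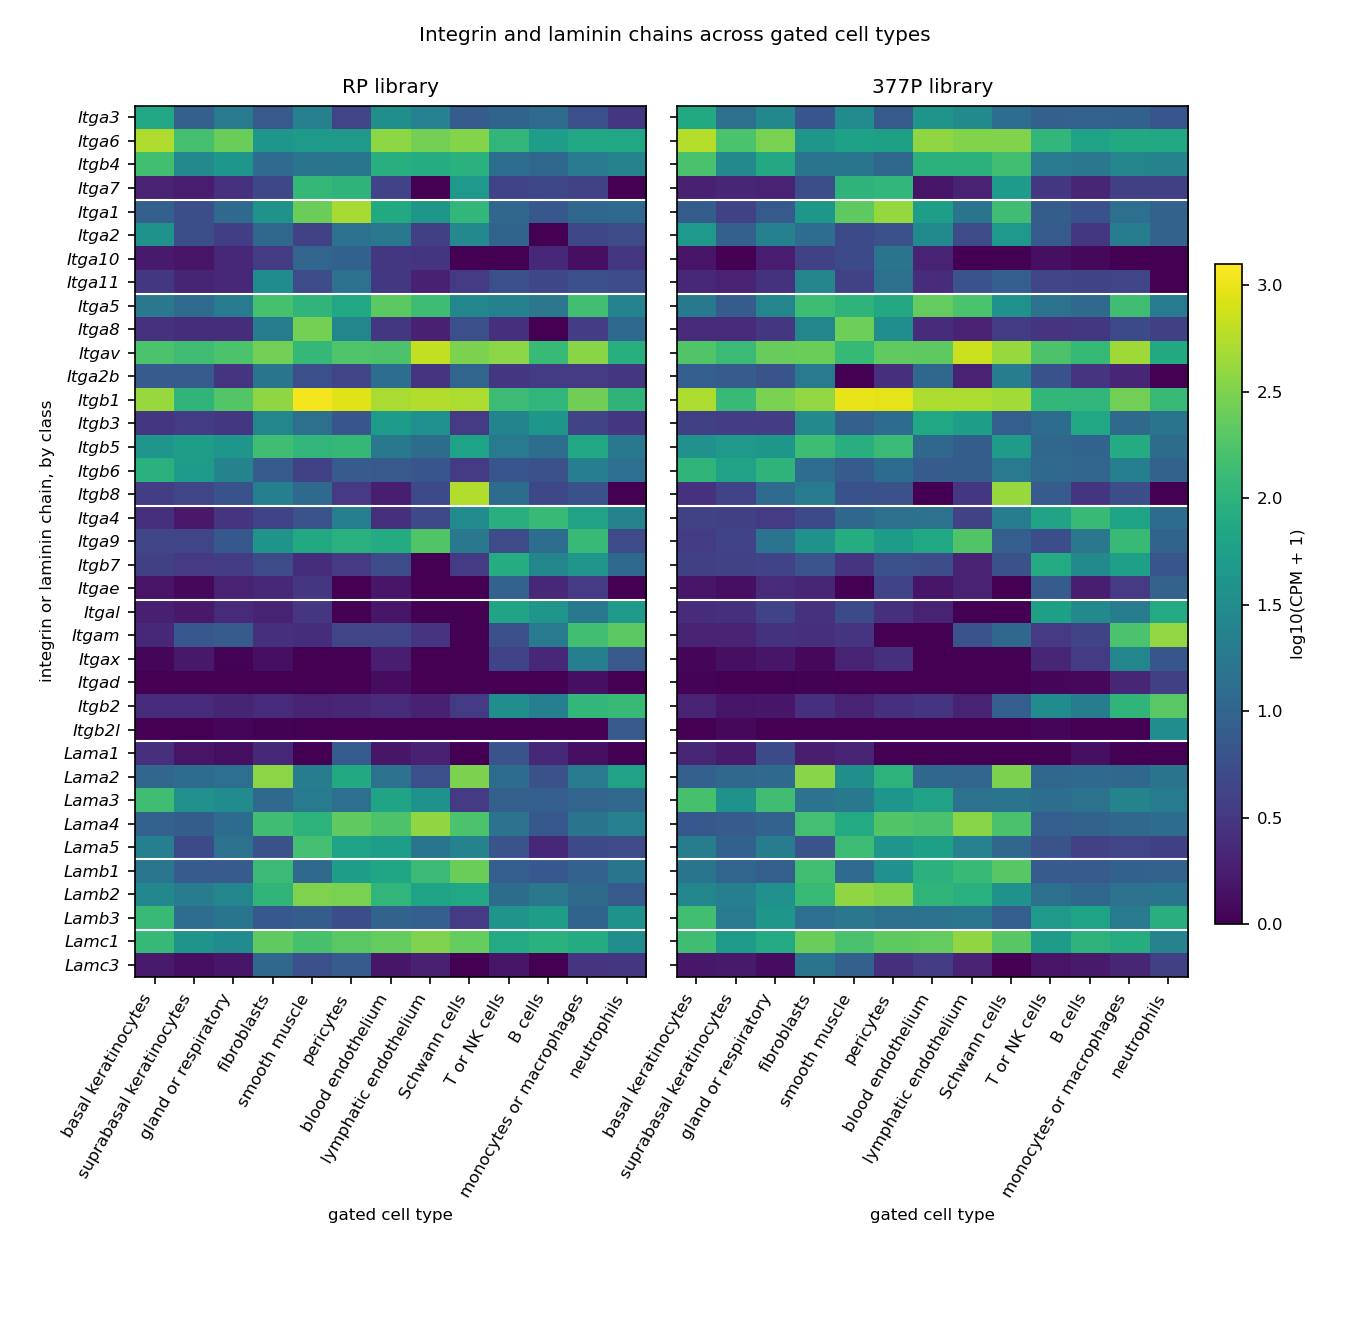
Level of the chains (rows, grouped by class: laminin-binding and beta 4, collagen-binding, RGD-binding and beta chains, alpha 4, alpha 9, beta 7 and alpha E, leukocyte chains, then laminin alpha, beta and gamma chains) in 13 gated cell types (columns) of the RP library (left) and the 377P library (right), as log10(CPM + 1). Itgb8 in Schwann cells and Itga8 in smooth muscle stand out in both libraries, and Itga6, Itgb4, Lama3 and Lamb3 are highest in basal keratinocytes of both, by smaller leads.

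Of the laminin-binding chains, Itga6, Itgb4 and Itga3 were highest in basal keratinocytes. Itga6, the alpha 6 chain on chromosome 2 (71745616 to 71858416, plus strand, mm10), stood at 533 CPM (521 to 545) in basal keratinocytes of RP and at 567 CPM (559 to 576) in those of 377P. Blood endothelium came next, with 378 CPM in RP and 383 CPM in 377P, a lead of 1.41-fold (1.33 to 1.49) and 1.48-fold (1.38 to 1.60) for basal keratinocytes. Schwann cells held 336 CPM in RP and 320 CPM in 377P and lymphatic endothelium 284 and 324 CPM, so the order of these lower types differed between the libraries. The gland or respiratory epithelium held 255 CPM in RP and 298 CPM in 377P.

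Itgb4, whose product joins alpha 6 at hemidesmosomes, lies on chromosome 11 (115974709 to 116008412, plus strand). Its level was 144 CPM (138 to 151) in basal keratinocytes of RP and 163 CPM (158 to 167) in those of 377P. Schwann cells followed with 95.2 CPM in RP and 143 CPM in 377P, and in 377P the ratio of basal keratinocytes over Schwann cells, 1.14, had an interval that included 1 (0.880 to 1.503). Both endothelial types held it too, at 81.1 to 86.5 CPM in RP and 97.0 to 97.6 CPM in 377P. The gland or respiratory epithelium had 42.0 CPM in RP and 74.2 CPM in 377P.

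Itga3, the alpha 3 chain that pairs with beta 1 as a laminin-332 receptor, was at 70.3 CPM in basal keratinocytes of RP and 76.0 CPM in those of 377P. Blood endothelium had about 2-fold less, 34.0 CPM in RP and 39.2 CPM in 377P. Itga7, the laminin receptor of muscle, was highest in mural cells: smooth muscle held 115 CPM in RP and 103 CPM in 377P, and pericytes 104 and 112 CPM. The leading type of Itga7 differed between the libraries, and these mural types differed by less than their counting error (fold 1.11, 0.864 to 1.43, in RP and 1.08, 0.787 to 1.48, pericytes over smooth muscle, in 377P). Schwann cells followed with 44.1 CPM in RP and 49.3 CPM in 377P, and all remaining types were under 5 CPM in both libraries.

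Lama3 and Lamb3, which encode chains of laminin-332, both led in basal keratinocytes. Lama3 reached 138 CPM in RP and 155 CPM in 377P, and Lamb3 122 and 145 CPM. After thinning each cell to 1000 UMIs, 13.0% of basal keratinocytes of RP (11.2 to 15.0, exact binomial) and 14.2% of those of 377P (12.7 to 15.9) held a Lamb3 UMI, against 0.492% and 1.67% of fibroblasts, which are not known to make laminin-332. Thinning left out 345 cells of RP and 178 of 377P over the 13 types, each with under 1000 UMIs. Without thinning the shares were 64.9% and 80.6% in basal keratinocytes and 3.11% and 8.38% in fibroblasts, at median depths of 10170.5 and 14314 UMIs in basal keratinocytes and 4649 and 6452 UMIs in fibroblasts.

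Lama3 came next in blood endothelium in RP, at 63.8 CPM in RP and 59.5 CPM in 377P, and in the gland or respiratory epithelium in 377P. Outside epithelium Lamb3 was found in leukocytes: B cells held 51.5 CPM in RP and 61.2 CPM in 377P, T or NK cells 39.6 and 45.1 CPM, and neutrophils 38.1 and 89.5 CPM. Fibroblasts, mural cells, endothelium, Schwann cells and macrophages were at 2.32 to 17.9 CPM over both libraries. Thinned to 1000 UMIs, 5.36% of B cells of RP (2.96 to 8.84) and 6.62% of those of 377P (5.52 to 7.86) held a Lamb3 UMI. The annotated span of Lamb3 on chromosome 1 (193207699 to 193343878, plus strand) overlaps G0s2, Hsd11b1 and Gm37650 on the opposite strand and 4930570N18Rik on the same strand, and UMIs of the overlap cannot be assigned to one gene with certainty.

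Itgb6, which pairs with alpha v to activate latent TGF-beta and is known from junctional epithelium, was at 94.3 CPM in basal keratinocytes of RP and 104 CPM in those of 377P. Suprabasal keratinocytes followed in RP with 48.8 CPM. In 377P the gland or respiratory epithelium reached 101.5 CPM, which did not differ from basal keratinocytes beyond counting error (ratio 1.03, 0.924 to 1.15).

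Suprabasal keratinocytes carried less of most chains than basal cells of the same library. Of 23 genes with at least 50 UMIs in the pair of layers in both libraries, 17 were lower in suprabasal cells in both. Itgb5, Itgb8 and Lama2 were higher in both, and Itga9, Itgb7 and Lama4 differed in direction. Here and in the other pairs of types, direction is the sign of the ratio, also where its interval included 1. Of the 3 higher genes, only Itgb5 had intervals above 1 in both libraries. The interval of Lama2 was 0.895 to 1.60 in RP and 0.956 to 1.72 in 377P, and that of Itgb8 0.712 to 2.17 in RP. Such counts were not made over all genes for any pair of types. Itga6 had 151 CPM in suprabasal cells against 533 CPM in basal cells of RP, and 166 against 567 CPM in 377P. Lamb3 was 10.4-fold lower in suprabasal than basal cells of RP and 8.14-fold lower in those of 377P. Itgb4 was 5.24-fold lower in RP and 5.84-fold lower in 377P. Itgb1, the partner of most alpha chains, was 3.895-fold lower in RP and 4.14-fold lower in 377P.

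The chains of alpha v beta 5 had smaller steps between the layers. Itgb5 was 53.8 CPM in suprabasal against 40.5 CPM in basal keratinocytes of RP, and 45.7 against 36.3 CPM in 377P. Itgav was 142 against 167 CPM in RP and 128 against 179 CPM in 377P, a smaller step than that of Itga6. The 1188 keratinocytes of RP and 1185 of 377P that the gate placed between the layers had intermediate levels of Itga6 (411 and 424 CPM), Itgb4 (94.3 and 118 CPM) and Lamb3 (71.0 and 107 CPM). Not all chains were intermediate there. Itgav was at 192 CPM in RP and 202 CPM in 377P, above both layers of the same library. Itgb6 was at 113 CPM in these cells of 377P, above its 104 CPM in basal cells. The layers were gated on Krt15, Krt14, Krt5, Krt13, Krt4 and further genes that include no chain described here.

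**Figure D2:**
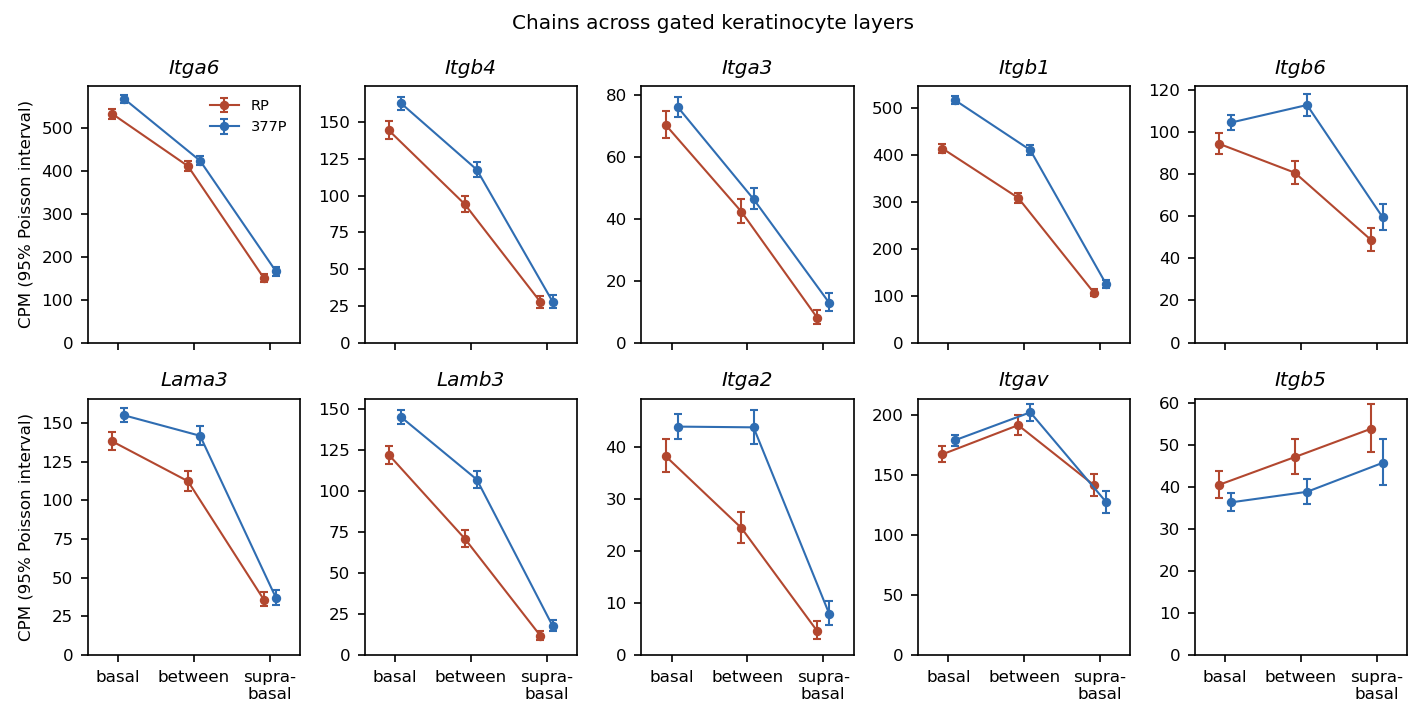
Level in CPM (y axis, 95% Poisson intervals) of 10 chains in keratinocytes gated as basal, between or suprabasal (x axis), in the RP library (red, left of each pair) and the 377P library (blue, right). Itga6, Itgb4, Itga3, Itgb1, Itga2, Lama3 and Lamb3 are lowest in suprabasal cells of both libraries, whereas Itgb5 is highest there.

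The partners of the hemidesmosome and basement membrane were followed in lists of 6 and 15 genes. Col17a1, the transmembrane collagen of hemidesmosomes, was 678 CPM in basal keratinocytes of RP and 927 CPM in those of 377P, with 79.5 and 145 CPM in the next type. Col7a1, the anchoring fibril collagen, also led in basal keratinocytes, with 50.4 CPM in RP and 54.2 CPM in 377P. The network-forming collagen genes Col4a1 and Col4a2 led in pericytes instead, at 894 and 559 CPM in RP and 998 and 674 CPM in 377P. Dst, which encodes the hemidesmosomal plakin and its neural forms, led in Schwann cells, at 1070 CPM in RP and 1025 CPM in 377P. Of the hemidesmosome list 0 of 6 genes, and of the basement membrane list 0 of 12 measured, were past 2-fold between the libraries in basal keratinocytes, in either direction, where the share over all genes was 4.46%.

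The collagen-binding alpha chains divided among mural cells, keratinocytes and fibroblasts. Itga1 was highest in pericytes, at 489 CPM (443.5 to 538) in RP and 406 CPM (357 to 459) in 377P, and smooth muscle held 251 and 213 CPM. Pericytes exceeded smooth muscle 1.95-fold in RP and 1.90-fold in 377P, with intervals of 1.70 to 2.22 and 1.58 to 2.30. Itga2 led in basal keratinocytes of RP (38.3 CPM) and was even between Schwann cells (44.4 CPM) and basal keratinocytes (44.0 CPM) of 377P. The genes lie side by side on chromosome 13, with 20.995 kb and no protein-coding gene between them, and Itga1 was at 7.81 and 7.32 CPM in basal keratinocytes of RP and 377P.

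Itga11, a receptor for fibrillar collagen known from periodontal ligament fibroblasts, was highest in fibroblasts, at 31.6 CPM in RP and 24.8 CPM in 377P. Pericytes came next at 13.8 and 12.9 CPM. Itga10, the collagen receptor of cartilage, was scarce in the 13 types: smooth muscle held 9.38 CPM in RP and 4.0 CPM in 377P, and pericytes 8.07 and 14.6 CPM. These levels rest on 18 and 4 UMIs in smooth muscle and 7 and 9 UMIs in pericytes, and the leading type differed between the libraries.

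Among the chains that bind fibronectin, vitronectin and related RGD ligands, Itga8 and Itgb8 each had 1 type far above the others. Itga8, the alpha 8 chain on chromosome 2 (12106632 to 12301922, minus strand), was at 279 CPM (256 to 303) in smooth muscle of RP and 256 CPM (226 to 289) in that of 377P. Pericytes, the next type, held 25.4 CPM in RP and 34.0 CPM in 377P, so that smooth muscle led 11.0-fold (7.18 to 17.7) and 7.54-fold (4.83 to 12.4). All types outside mural cells and fibroblasts were under 11 CPM in both libraries. Itga1 was thus higher in pericytes and Itga8 higher in smooth muscle, in both libraries. Of 15 genes compared between these types, 6 were higher in pericytes in both libraries, 6 lower in both, and 3 differed in direction, Itga7 and Itga9 among them.

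Itgb8, a beta chain that pairs with alpha v, lies on chromosome 12 (119158022 to 119238802, minus strand) and had the largest lead over the next type among the 36 genes. Schwann cells held 552 CPM (484 to 627) in RP and 421 CPM (361 to 489) in 377P, while fibroblasts, the next type, held 20.9 and 17.9 CPM. The lead was 26.4-fold (22.4 to 31.02) in RP and 23.5-fold (19.5 to 28.4) in 377P. After thinning, 35.4% of Schwann cells of RP (27.2 to 44.3) and 22.8% of those of 377P (15.0 to 32.2) held a UMI, against 0.151% and 0.103% of basal keratinocytes. Unthinned, the shares were 51.1% and 50.5% of Schwann cells at median depths of 2264 and 2846 UMIs, and 2.78% and 2.06% of basal keratinocytes.

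Itgav, the alpha chain shared by these receptors, was found in all 13 types. Lymphatic endothelium led at 647 CPM (600 to 698) in RP and 702 CPM (650 to 757) in 377P, and neutrophils were lowest at 88.9 and 75.0 CPM. Itgb5, a vitronectin receptor chain, led in fibroblasts at 141 CPM in RP and 135 CPM in 377P, close to pericytes at 115 and 129 CPM. Vtn itself, the vitronectin gene, was at 261 CPM in pericytes of RP and 273 CPM in those of 377P, and at most 15.0 CPM in any other type. Itgb3, best known from platelets, osteoclasts and vessels, was at 47.7 CPM in blood endothelium and 42.9 CPM in B cells of RP, and at 68.4 and 71.4 CPM in these types of 377P.

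Itga5, the fibronectin receptor chain, led in blood endothelium at 207 CPM (192 to 222) in RP and 222.5 CPM (202 to 244) in 377P. Fibroblasts came next in RP (158 CPM, with 137 CPM in 377P) and lymphatic endothelium in 377P (164 CPM, with 135 CPM in RP). Macrophages held 145 CPM in RP and 142 CPM in 377P. Fn1, its ligand, led in fibroblasts, at 1332 CPM in RP and 1397 CPM in 377P. Itga2b, the platelet alpha chain, stayed under 20 CPM in all types and led in fibroblasts of RP (15.1 CPM) and Schwann cells of 377P (19.7 CPM, 8 UMIs), with fibroblasts there at 18.5 CPM.

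Itgb1, which joins most of these alpha chains, was present in all 13 types. Smooth muscle was highest with 1118 CPM in RP and 1004 CPM in 377P, and pericytes followed with 887 and 931 CPM. Neutrophils, suprabasal keratinocytes and lymphocytes were lowest, between 102 and 131 CPM in RP and between 107.5 and 125 CPM in 377P. Of the genes that link integrins to actin, Flna (1638 and 1552 CPM), Vcl (523 and 564 CPM) and Tln1 (389 and 344 CPM) also led in smooth muscle of RP and 377P. Fermt1, the kindlin of epithelia, led in basal keratinocytes (52.6 and 51.6 CPM), and Fermt3, the kindlin of blood cells, in macrophages (102 and 133 CPM).

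The alpha 9 chain gene Itga9 was highest in lymphatic endothelium, where it is needed for valve formation in mice. Its level there was 179 CPM (155 to 207) in RP and 178 CPM (153 to 207) in 377P, and macrophages followed at 126 and 125 CPM. Blood endothelium had 80.4 CPM in RP and 69.9 CPM in 377P. Against blood endothelium, 17 genes could be compared with lymphatic endothelium in both libraries. By the sign of the ratio, 7 were higher in lymphatic cells in both libraries and 10 lower. Some of these were even within counting error. Itgb1, counted as higher, had ratios of 1.07 (0.9775 to 1.18) in RP and 1.001 (0.899 to 1.11) in 377P. Itgb4, counted as lower, had 0.938 (0.730 to 1.19) and 0.994 (0.768 to 1.28). Itgav (3.76-fold in RP, 3.33-fold in 377P), Itga9 (2.23 and 2.55-fold) and Lama4 (2.23 and 2.19-fold) were the highest of the 17. Lama5 was 3.57-fold lower in lymphatic cells of RP and 2.48-fold lower in those of 377P.

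The leukocyte chains of the beta 2 class were highest in myeloid cells and lymphocytes. Itgb2, the beta 2 chain that all leukocyte alpha chains of this class need, was at 121 CPM (91.4 to 156) in neutrophils of RP and 202 CPM (157 to 255) in those of 377P. Macrophages held 111 and 105 CPM, so the order of neutrophils over macrophages was within counting error in RP (1.08-fold, 0.803 to 1.44) and beyond it in 377P (1.93-fold, 1.44 to 2.55). T or NK cells held 34.3 CPM in RP and 30.8 CPM in 377P and B cells 20.8 and 19.2 CPM. All types that are not leukocytes were at 0.504 to 7.39 CPM.

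Itgam, the alpha M chain of the complement receptor, was at 209.5 CPM (170 to 255) in neutrophils of RP and 389.5 CPM (327 to 461) in those of 377P. Macrophages held 145 CPM in RP and 167 CPM in 377P. Itgax, the alpha X chain used as a marker of dendritic cells and some macrophages, was at 20.7 CPM in macrophages of RP and 25.4 CPM in those of 377P, against 6.35 and 5.77 CPM in neutrophils. In each library Itgam and Itgax thus led in different types. Of 14 genes compared between neutrophils and macrophages, 3 were higher in neutrophils in both libraries, 10 lower in both, and Itgb4 differed in direction. Itgal, the alpha L chain of lymphocytes, led in T or NK cells of RP (63.3 CPM) and in neutrophils of 377P (77.9 CPM, 51.3 to 113), where T or NK cells held 57.0 CPM.

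Itgam, Itgax and Itgad follow each other on chromosome 7 on the plus strand, at 128062640 to 128118491, 128129547 to 128150657 and 128154376 to 128223816, with 11.055 and 3.718 kb between them and no other protein-coding gene in the gaps. The 250 bases before the RefSeq start of Itgam (chr7:128062390-128062639) and of Itgax (chr7:128129300-128129549, a window that runs 3 bases past the start given above), on GRCm38.p6, plus strand, are shown because the genes are adjacent and differ in leading type; capitals mark GAGGAA on either strand, a core recognised by ETS factors such as PU.1.
Itgam: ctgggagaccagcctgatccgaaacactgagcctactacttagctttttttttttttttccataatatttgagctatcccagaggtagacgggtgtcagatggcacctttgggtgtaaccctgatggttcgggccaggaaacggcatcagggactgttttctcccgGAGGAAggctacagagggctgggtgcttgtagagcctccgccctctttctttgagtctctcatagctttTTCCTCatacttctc
Itgax: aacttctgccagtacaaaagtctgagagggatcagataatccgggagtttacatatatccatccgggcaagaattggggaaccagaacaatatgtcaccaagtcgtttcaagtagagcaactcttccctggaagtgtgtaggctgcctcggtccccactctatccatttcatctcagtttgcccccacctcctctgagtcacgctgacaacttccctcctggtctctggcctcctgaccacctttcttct
The Itgam window held 2 matches, 84 and 15 bases before the RefSeq start, and the Itgax window none. The same 6 letters occur in 23.25% of the 32851 promoter windows and in 14 of the 27 windows of the 24 members that have one. The motif was chosen with the Itgam sequence in view, and a match is a description of letters only.

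The lymphocyte chains Itga4 and Itgb7 form the gut-homing receptor when paired. Itga4 led in B cells at 125 CPM (102 to 152) in RP and 122 CPM (114 to 131) in 377P, with T or NK cells at 89.1 and 64.4 CPM. Itgb7 led in T or NK cells at 82.3 CPM (69.9 to 96.3) in RP and 80.8 CPM (75.0 to 87.1) in 377P, with macrophages at 40.1 and 55.9 CPM and B cells at 25.7 and 28.6 CPM. Itgae, the alpha E chain that binds E-cadherin with beta 7, was scarce: T or NK cells held 8.44 CPM in RP and 7.03 CPM in 377P, and the lead of neutrophils in 377P rested on 3 UMIs. Vcam1, a ligand of alpha 4, led in blood endothelium at 310 CPM in RP and 489 CPM in 377P. Madcam1, the ligand of the alpha 4 beta 7 pair, was at most 1.04 CPM in any type. Of 12 genes compared between B cells and T or NK cells, 4 were higher in B cells in both libraries and 7 lower in both.

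The laminin alpha chains other than that of Lama3 each had a different leading type. Lama2, the chain of muscle and nerve basement membranes, was at 367 CPM (359 to 376) in fibroblasts of RP and 351 CPM (343 to 360) in those of 377P, and at 304 and 310 CPM in Schwann cells. Lama4, the chain of vessel walls, led in lymphatic endothelium at 381 CPM (345 to 420) in RP and 354 CPM (317 to 394) in 377P, with pericytes at 219 and 183 CPM and blood endothelium at 171 and 161.5 CPM. Lama5 led in smooth muscle, at 147 CPM (130 to 165) in RP and 132 CPM (110.5 to 156.5) in 377P, and exceeded the next type 2.36-fold and 2.32-fold. Lama1, a chain of early development, had 178 UMIs in RP and 140 in 377P over all kept cells and led in pericytes of RP and in the gland or respiratory epithelium of 377P.

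Lamb1 and Lamb2 encode beta chains that replace each other in many trimers. Lamb1 led in Schwann cells, at 251 CPM (206 to 303) in RP and 195 CPM (154 to 243) in 377P, followed by fibroblasts at 130 and 145 CPM. Lamb2 led in smooth muscle, at 318 CPM (293 to 344) in RP and 379 CPM (342 to 419) in 377P, with pericytes at 296 and 325 CPM. Smooth muscle held little Lamb1, 10.9 CPM in RP and 11.0 CPM in 377P, whereas Schwann cells held 71.9 and 37.0 CPM of Lamb2. Lamb1 and Lamb2 thus had opposite orders between Schwann cells and smooth muscle in both libraries.

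Lamc1, the common gamma chain, led in lymphatic endothelium at 314 CPM (281 to 350) in RP and 384 CPM (346 to 425) in 377P, and was at 94.4 and 100 CPM in B cells and 78.6 and 49.7 CPM in T or NK cells. Lamc3 led in fibroblasts, at 10.0 CPM in RP and 14.8 CPM in 377P. Of the other laminin receptors, Dag1, which encodes dystroglycan, led in Schwann cells at 506 CPM in RP and 606 CPM in 377P, and Bcam, a receptor of the Lama5 product, in smooth muscle at 388 and 347 CPM.

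The libraries were then compared within 9 types that had at least 200 cells in each, pericytes and smooth muscle being pooled as mural cells. A gene entered with at least 50 UMIs in the type over both libraries, and was counted as past 2-fold when its CPM ratio was at least 2 in either direction. This gave 225 pairs of gene and type, of which 20 were past 2-fold, 4 higher in RP and 16 higher in 377P. Of the 20, 10 lay in the gland or respiratory epithelium. In the 6 types where no cluster was led by markers of another list, 8 of 145 pairs were past 2-fold, 3 higher in RP and 5 higher in 377P. The share of all genes past 2-fold differed between types and stands beside the count of each. Where few members of a type were past 2-fold, those too scarce for the naming rule were named after their values were seen: Lama5 in suprabasal keratinocytes, Lamb3 in fibroblasts and mural cells, Itgb8 in mural cells and gland or respiratory epithelium, Lama2 in B cells, Lama3 in macrophages, Itgb3 in T or NK cells, and Itga9, Itga2b and Itgam in gland or respiratory epithelium.

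In basal keratinocytes 0 of 30 members were past 2-fold, against 4.46% of all 13402 genes tested in these cells (3.16% higher in RP and 1.3% higher in 377P). The ratios ran from -0.92 to 0.80 on the log2 scale. The chains of alpha 6 beta 4 and the Lama3 and Lamb3 chains were lower in RP than in 377P: the log2 ratio was -0.09 for Itga6, -0.17 for Itgb4, -0.17 for Lama3 and -0.25 for Lamb3, where the median over all genes was 0.03 and that over the 30 members -0.06. Itgb1 stood at 413 CPM in RP against 516 CPM in 377P, a ratio of 0.799 (0.776 to 0.823). Most basal cells of RP lay in cluster 2 (87.0%) and most of those of 377P in cluster 33 (88.3%) when all cells were clustered without the 38 genes, so these ratios set side by side cells that also differ in other genes.

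In suprabasal keratinocytes 1 of 19 members was past 2-fold, against 5.02% of all genes (3.74% higher in RP and 1.28% higher in 377P): Lama5 had 4.01 CPM in RP and 8.07 CPM in 377P, on 26 and 48 UMIs. With the cell of most UMIs in 377P left out, and none in RP, its log2 ratio was -0.90, short of 2-fold. Cluster 32 held 257 of the 300 gated suprabasal cells of 377P and 0 of the 453 of RP. In blood endothelium 0 of 21 members were past 2-fold, against 2.5% of all genes (1.46% higher in RP and 1.04% higher in 377P), and the median log2 ratio of the members was -0.04. Itgb1 had 512 CPM in blood endothelium of RP and 526 CPM in that of 377P, and Itga6 378 and 383 CPM, with ratios of 0.973 (0.902 to 1.05) and 0.988 (0.904 to 1.08). In cluster 16, which held 630 and 254 of these cells, 0 of 21 members were past 2-fold, against 2.43% of all genes.

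**Figure D3:**
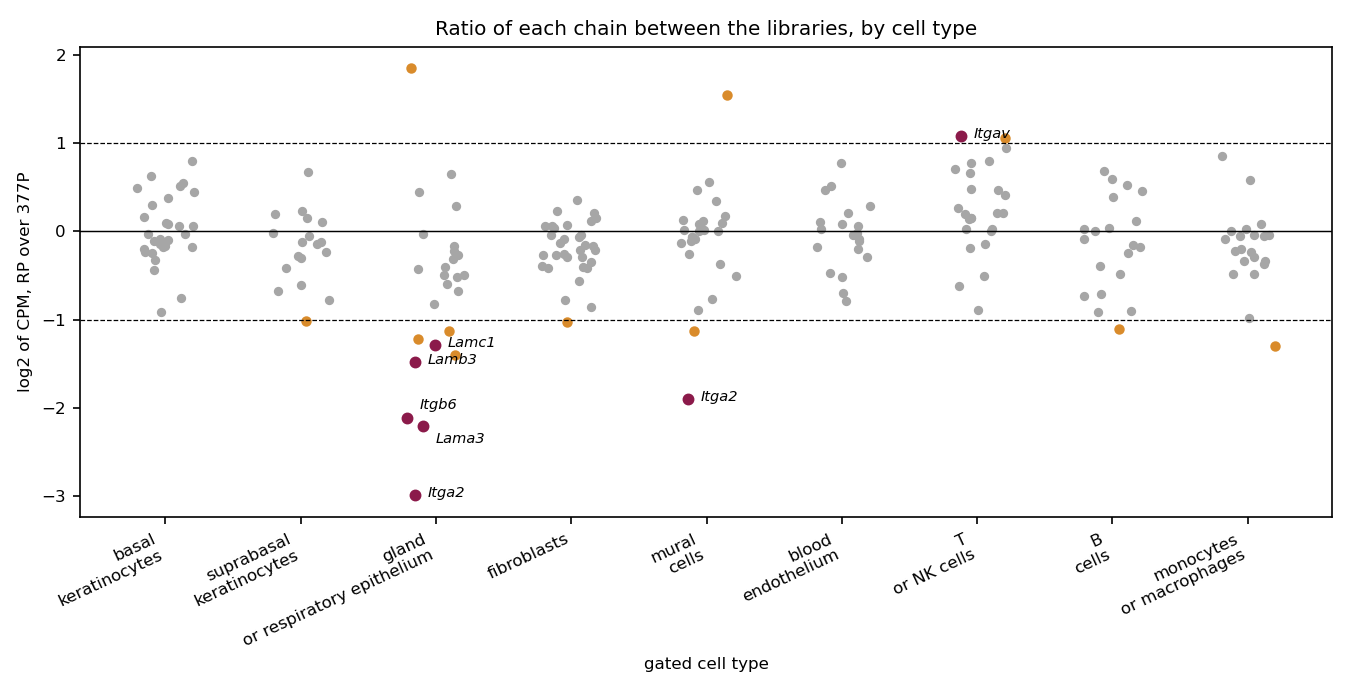
log2 ratio of CPM, RP over 377P (y axis), of chains with at least 50 UMIs in each of 9 gated cell types (x axis). Dashed lines mark 2-fold; orange and purple points are past 2-fold, purple and named where the higher library had at least 50 UMIs and at least 20% of the gene's highest level over the types. Itga2, Lama3, Itgb6 and Lamb3 lie furthest below the line at 0 in the gland or respiratory epithelium.

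In mural cells 3 of 27 members were past 2-fold, against 2.83% of all genes (2.15% higher in RP and 0.683% higher in 377P). Itga2 had 5.50 CPM in RP and 20.4 CPM in 377P, a ratio of 0.269 (0.160 to 0.441). However, 38 of its 53 UMIs in 377P came from 1 cell, and with that cell left out the log2 ratio was -0.08. Itgb8, with 10.1 CPM in RP and 3.47 CPM in 377P, and Lamb3, with 7.04 and 15.4 CPM, were too low against their highest level to meet the rule for naming. The chains highest in mural cells were within 2-fold over the whole type: Itga1 had 299 and 266 CPM, Itga8 169 and 158 CPM and Lamb2 292 and 350 CPM in RP and 377P. Itga8 differed in direction by cluster: it had 228 CPM in RP and 175 CPM in 377P in cluster 0 (ratio 1.30, 1.13 to 1.502), and 73.8 and 138 CPM in cluster 11 (ratio 0.536, 0.408 to 0.701). By cluster, 0 of 20 members were past 2-fold in cluster 0, against 2.73% of all genes, and 1 of 17 in cluster 11, against 2.61%.

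In macrophages 2 of 22 members were past 2-fold, against 4.71% of all genes (3.6% higher in RP and 1.11% higher in 377P). Lama3 had 9.36 CPM in RP and 23.1 CPM in 377P. In cluster 7, which held nearly all macrophages, 2 of 21 members were past 2-fold, Lama3 among them, against 3.55% of all genes. The cell with most UMIs held 12 of the 40 UMIs of Lama3 in 377P. With that cell left out, and none in RP, the log2 ratio was -0.80, short of 2-fold. In the same cells Krt14 was 602 CPM in RP and 1151 CPM in 377P, and Col17a1, another gene of basal keratinocytes, 39.5 and 84.2 CPM. The part of free keratinocyte RNA in this ratio was not tested.

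Among the partner lists, macrophages held 2 ligands past 2-fold that met the rule for naming. Fn1 had 292 CPM in RP and 592 CPM in 377P, and Thbs1, another integrin ligand, 344 and 693 CPM. Against the 4.71% of all genes, 3 of the 13 other ligands measured were past 2-fold (1 higher in RP, Vwf, and 2 higher in 377P), as was 1 of 6 hemidesmosome genes (Col17a1, higher in 377P). None of the 17 integrin adaptors, 6 laminin receptors and 4 basement membrane genes measured was.

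T or NK cells held 2 of 26 members past 2-fold, against 5.92% of all genes (4.41% higher in RP and 1.51% higher in 377P). Itgav had 361 CPM in RP and 171 CPM in 377P, a ratio of 2.11 (1.92 to 2.31), and Itgb3 23.7 and 11.4 CPM. With the cell of most Itgb3 UMIs in RP left out, and none in 377P, the log2 ratio of Itgb3 was 0.96, short of 2-fold. The thinned share of cells with an Itgav UMI was 22.3% in RP (18.7 to 26.2) and 12.7% in 377P (11.1 to 14.4), against 9.58% and 9.46% in B cells. Without thinning, the shares in T or NK cells were 42.6% and 31.4%, at median depths of 3360 and 4536.5 UMIs.

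The T or NK cells of the libraries lay in different clusters, however. Cluster 14, led by Gzma, Xcl1 and Ccl5, held 294 of the 491 gated cells of RP and 33 of the 1690 of 377P. Cluster 26, led by Il17a, Cd163l1 and Trdc, held 179 and 362 cells, and cluster 31, led by Gm2682, Cd8b1 and Lef1, held 7 and 1273.

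Itgav was high in cluster 26 of both libraries, at 847 CPM (776 to 923) in RP and 543 CPM (509.5 to 577) in 377P. It was lower in cluster 14, at 102 and 160 CPM, and in cluster 31 of 377P, at 57.5 CPM (51.7 to 63.8). Cluster 26 carried 76.5% of the Itgav UMIs of T or NK cells in RP and 67.7% of those in 377P. Within cluster 26 the ratio of RP over 377P was 1.56 (1.40 to 1.74), and within cluster 14 it was 0.639 (0.431 to 0.973). Over all members, 1 of 12 was past 2-fold in cluster 26, against 6.26% of all genes, and 4 of 7 in cluster 14, against 15.4%, with Itga6 higher in RP and Itga4, Itgal and Itgb1 higher in 377P. These clusters were examined after the values of the whole type had been seen.

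Of the partner list of basement membrane genes, Npnt, which encodes a ligand of alpha 8 beta 1, had 65.4 CPM in T or NK cells of RP and 12.7 CPM in those of 377P, a ratio of 5.16 (3.96 to 6.73). Against the 5.92% of all genes, 1 of 8 basement membrane genes and 2 of 15 other ligands were past 2-fold, all higher in RP, and 0 of the 6 hemidesmosome genes, 17 adaptors and 6 laminin receptors.

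The remaining types, gland or respiratory epithelium, fibroblasts and B cells, each contained a cluster whose leading genes included more markers of another list than of their own. Cluster 3 within the gland or respiratory epithelium was led by Scgb1c1, Amelx and Ccer2, and also by Enam, and Amelx and Enam are enamel matrix genes. Cluster 18 within fibroblasts was led by Ibsp, Mmp13 and Gpx3, with Ibsp and Bglap from the osteoblast list. Cluster 20 within B cells was led by immunoglobulin genes with Jchain and Mzb1 of the plasma cell list. In these types the libraries are therefore read by cluster number.

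In the gland or respiratory epithelium as a whole 10 of 26 members were past 2-fold, against 9.98% of all genes (2.68% higher in RP and 7.3% higher in 377P), 9 of them higher in 377P. Itga2 had 2.74 CPM in RP and 21.7 CPM in 377P, Lama3 30.1 and 139 CPM, Itgb6 23.5 and 101.5 CPM and Lamb3 15.3 and 42.4 CPM. Lamc1 had 31.4 CPM in RP and 76.9 CPM in 377P, and was named after its values were seen. Itga9, Itga2b and Itgb8, also higher in 377P, stood at 2.003 to 6.17 CPM in RP and 5.30 to 14.3 CPM in 377P. With the cell of most Itgb8 UMIs in 377P left out, and none in RP, the log2 ratio of Itgb8 was -0.98, short of 2-fold. Cluster 3 held 5 of the 1702 gated cells of RP (0.294%) and 61 of the 257 of 377P (23.7%). The keratinocyte genes Krt14 and Col17a1 were also lower in this type of RP, at 574 and 38.0 CPM, than in that of 377P, at 1094 and 99.2 CPM; their part in the ratios was not tested.

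Most UMIs of Itga2, Lama3, Itgb6 and Lamb3 in this type of 377P lay in cluster 3. Its 61 cells carried 73 of the 82 Itga2 UMIs (89.0%), 367 of the 523 Lama3 UMIs (70.2%), 252 of the 383 Itgb6 UMIs (65.8%) and 100 of the 160 Lamb3 UMIs (62.5%). Levels in these cells were 449 CPM (404 to 497) for Lama3, 308 CPM (271 to 349) for Itgb6, 122 CPM (99.5 to 149) for Lamb3 and 89.3 CPM (70.0 to 112) for Itga2. Lama3 and Itgb6 were thus above their levels in basal keratinocytes of 377P, which were 155 and 104 CPM. In RP Lama3 and Itgb6 were high in clusters 4 and 6, which held 133 and 52 gated cells of RP: Lama3 was at 103 CPM (89.5 to 118) and 184 CPM (149 to 225), and Itgb6 at 102 CPM (88.5 to 117) and 147 CPM (116 to 184). Lamb3 was at 20.3 and 98.9 CPM in these clusters of RP and Itga2 at 3.56 and 17.45 CPM. Keratinocytes were the most frequent gated type in clusters 3, 4 and 6. Over both libraries they made up 65.5%, 50.9% and 86.6% of the gated cells of these clusters. Whether the cells gated as gland or respiratory epithelium there are of that kind was not tested.

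Cluster 22, which held 1011 gland or respiratory cells of RP and 75 of 377P, gave smaller ratios. There 1 of 20 members was past 2-fold, against 5.95% of all genes: Itgb6 had 13.5 CPM in RP and 28.1 CPM in 377P. Lama3 had 19.8 CPM in RP and 25.5 CPM in 377P in this cluster (ratio 0.774, 0.556 to 1.10). In cluster 27, with 218 and 55 cells, 6 of 14 members were past 2-fold, all higher in 377P, against 19.5% of all genes. Lama3 had 28.3 CPM there in RP and 71.1 CPM in 377P, and Itgb6 13.97 and 54.7 CPM. In cluster 9, with 191 and 34 cells, 1 of 4 members was past 2-fold, against 9.72% of all genes. Of the partner lists in the whole type, 1 of 12 basement membrane genes was past 2-fold and higher in RP (Frem2, 22.2 CPM in RP and 9.81 CPM in 377P) and 4 were higher in 377P. The other ligands gave 1 of 16 higher in RP and 2 higher in 377P, and the hemidesmosome genes, adaptors and laminin receptors 2 of 6, 1 of 19 and 2 of 7, all higher in 377P.

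**Figure D4:**
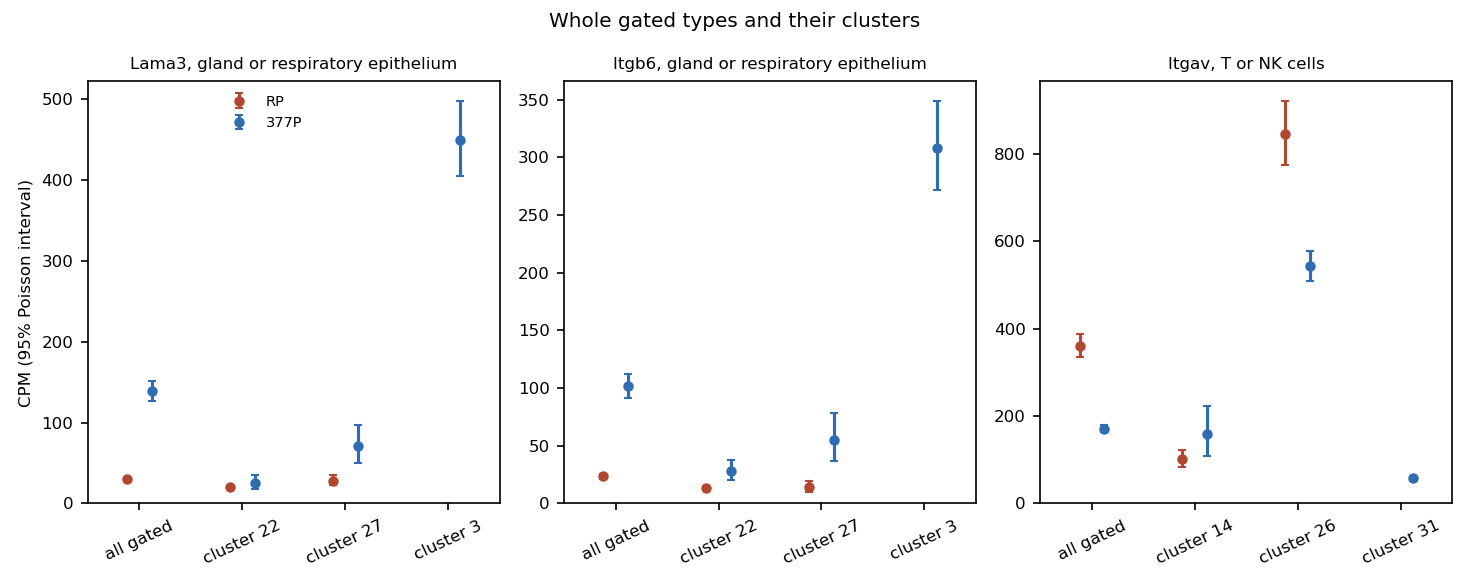
Level in CPM (y axis, 95% Poisson intervals) of Lama3 and Itgb6 in gland or respiratory epithelium and of Itgav in T or NK cells, for all gated cells and for single clusters (x axis), RP in red left of 377P in blue; a library with under 25 cells in a cluster is not drawn. Lama3 and Itgb6 of 377P are highest in cluster 3, and Itgav is highest in cluster 26 of both libraries.

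One leukocyte chain stood out on the other side in this epithelium. Itgam had 6.66 CPM in RP and 1.86 CPM in 377P, on 163 and 7 UMIs. In RP, 125 of the 163 UMIs came from the 133 gated cells in cluster 4, which was led by Psca, Ppbp and Muc5ac, at 63.6 CPM (52.9 to 75.7). In clusters 9, 22 and 27 of RP Itgam was at 1.22 to 1.79 CPM. The level was not particular to this epithelium. Suprabasal keratinocytes of RP, of which 116 lay in cluster 4, held 6.01 CPM of Itgam, and basal keratinocytes of RP 1.28 CPM.

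Fibroblasts as a whole had 1 of 33 members past 2-fold, against 3.99% of all genes (2.23% higher in RP and 1.76% higher in 377P). It was Lamb3, with 6.15 CPM in RP and 12.5 CPM in 377P. With the cell of most UMIs in 377P left out, and none in RP, its log2 ratio was -0.99, short of 2-fold. Krt14 was at 509 and 836 CPM and Col17a1 at 25.5 and 62.6 CPM in the same cells of RP and 377P. The part of free RNA in the Lamb3 ratio was not tested. In cluster 18, with 441 and 366 cells, 3 of 27 members were past 2-fold, against 3.71% of all genes. Lamc3 had 12.9 CPM there in RP and 32.4 CPM in 377P, a ratio of 0.399 (0.282 to 0.558). Itgb6 and Lamb3 had 5.85 and 4.63 CPM in RP and 13.3 and 13.0 CPM in 377P. In cluster 23 of fibroblasts, with 346 and 194 cells, 0 of 16 members were past 2-fold, against 4.26% of all genes.

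Most fibroblasts of RP lay in cluster 8, with 2843 and 13 cells in RP and 377P, and most of those of 377P in cluster 19, with 5 and 1889 cells, so whole-type ratios mostly set these clusters side by side. Over the whole type Lama2 had 367 CPM in RP and 351 CPM in 377P, Itgb5 141 and 135 CPM, Itgb1 382 and 392 CPM and Lama4 141 and 147 CPM. Itga11 had 31.6 and 24.8 CPM, a ratio of 1.27 (1.13 to 1.44), the highest of the 33. Within cluster 18 Lama2 had 146 CPM in RP and 224 CPM in 377P, a ratio of 0.651 (0.584 to 0.725). Of the partner lists, against the 3.99% of all genes, 1 of 14 basement membrane genes and 1 of 17 other ligands were past 2-fold in each direction, 1 of 6 hemidesmosome genes (Col17a1) was higher in 377P, and 0 of 19 adaptors and 7 laminin receptors were past 2-fold.

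B cells as a whole had 1 of 21 members past 2-fold, against 5.54% of all genes (2.72% higher in RP and 2.82% higher in 377P): Lama2, on 4 UMIs in RP and 64 in 377P, with an interval that included 1. Cluster 21 held 0 of the gated B cells of RP and 1781 of the 1846 of 377P, so the libraries met only in cluster 20, with 261 and 50 cells. There 2 of 5 members were past 2-fold, against 19.5% of all genes, Lamc1 being higher in RP and Itgb1 higher in 377P. Itga4 in cluster 20 had 125 CPM in RP and 65.2 CPM in 377P, a ratio of 1.92 (1.33 to 2.84). Its near equal levels over the whole type, given above, set cluster 20 of RP beside cluster 21 of 377P.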

How the data were processed

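Droplet 3' libraries titled RP and 377P, 1 each, were compared without replicates, so no p-value was computed. The authors deposited UMI counts per gene and barcode, made with Cell Ranger 7.0.1 per the file headers; the submitters' processing notes name Cell Ranger, STAR and mm10. Which annotation release was used, and whether intronic reads counted, is not given in the sources used here. RP had 18112 barcodes and 120909095 UMIs, and 377P 15466 and 127094166.

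Barcodes under 200 genes or over 20% mitochondrial UMIs were dropped, and Scrublet calls (expected rate 12%) were removed: 569 in RP (3.29%) and 836 in 377P (5.45%). A marker was on in a cell when its share of the cell's UMIs exceeded its mean share over both libraries; a type needed at least 3 of 8 markers on and a lead of at least 2 over the next list. These thresholds were set after the separation of markers was seen, and 8.89% of RP cells and 7.92% of 377P cells lay near the limit. Leiden clusters (resolution 1, 3000 variable genes without the members, 40 components, 20 neighbours) came from Scanpy 1.11.5 in Python 3.11.15. UMIs were summed per library and type; intervals (SciPy 1.17.1) are exact at 95% and cover counting error only. A gene at 0 was set to a floor of 3 counts in ratios. Types with at least 50 cells per library were described and those with at least 200 compared. Shares of cells used cells thinned to 1000 UMIs.

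Members with at least 50 UMIs were named with their leading type; between libraries, those past 2-fold with at least 50 UMIs and at least 20% of the gene's highest CPM in the higher library, up to 4 per direction and type; exceptions, named after their values were seen, are given as such. Where the 10 leading genes of a cluster held more markers of another list than of its own, its type was read by cluster. The members and lists were chosen with earlier results of these data known. Coordinates are those of mm10 and promoter sequences those of RefSeq. Alternatives covered gates, doublets, mitochondrial limit, thinning, normalization and thresholds. Values of 1 member are not reported here; counts over all members include it.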

Additional observations from a re-analysis of the deposited data

Results flagged for a closer look

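Itgb8 differed in direction between types: its log2 ratio of RP over 377P was 1.54 in mural cells, where it had 10.1 CPM in RP and 3.47 CPM in 377P, and -1.12 in the gland or respiratory epithelium, where it had 5.11 and 11.1 CPM. In mural cells these levels rested on 46 UMIs in RP and 9 in 377P, and in the epithelium on 125 and 42. With the cell of most UMIs in the higher library left out, the log2 ratios were 1.27 and -0.98. The difference between the types was not tested, since each title has 1 library.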

How the results depend on the processing

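No paired analysis was possible because each title has 1 library. The 20 pairs of gene and type past 2-fold became 8 with cells thinned to 1000 UMIs, 32 with a minimum of 20 UMIs, 13 with 100 UMIs and 56 at 1.5-fold; other settings gave 16 to 25. The number of genes with the same leading type, 28 in the values above, was 26 to 32 over the alternatives. Of the levels in leading types under these alternatives, 449 stayed within their Poisson interval and 127 moved out of it. With thinned cells 40 moved and 32 stayed, and with Leiden clusters in place of gates 26 moved and 46 stayed. Some log2 ratios changed sign. With Leiden clusters in place of gates they were 0.040 for Itga2 in gland or respiratory epithelium and 0.10 for Itga2 in mural cells. With thinned cells they were 0.14 for Itga9 in gland or respiratory epithelium, 0.53 for Itga2 in mural cells and 0.13 for Lama3 in macrophages. Within single clusters they were 0.16 for Itga2 in mural cells (cluster 11), -0.65 for Itgav and -1.80 for Itgb3 in T or NK cells (cluster 14) and 1.54 for Lamc1 in gland or respiratory epithelium (cluster 9). The value of -0.23 for Itgam there (cluster 22) is no turn in direction: RP had 28 UMIs and 377P 0, and 377P was set to the floor of 3 counts. The causes were not tested. The settings within clusters and with the cell of most UMIs left out were chosen after seeing the data. The latter left out a cell only of the library where the gene was higher, which tends to shrink the ratio. Of the ratios past 2-fold under all settings, 157 kept direction and size, 46 moved and 10 changed sign, Itgam only through the floor. Genes under about 50 UMIs in a type are limited by counting error.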

Other observations

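Several types had too few cells for the comparisons, and their values rest on few cells. Itga10, the collagen receptor of cartilage, was at 95.6 CPM (67.6 to 131) in 51 chondrocytes of RP and 118 CPM (68.4 to 188) in 18 of 377P. Itga9 was at 245 CPM (140 to 397) in 36 mast cells or basophils of RP and 248 CPM (156 to 376) in 27 of 377P. Itga4 was at 353 CPM (274.5 to 446) in 20 plasma cells of RP and 168 CPM (125 to 222) in 30 of 377P. Itgav, a chain of the vitronectin receptor by which osteoclasts attach to bone, was at 898 CPM (581 to 1325) in 2 osteoclasts of RP and 716 CPM (589 to 861) in 8 of 377P. Itgb3, the beta chain known from osteoclasts, had 0 UMIs in those of RP, with an interval up to 132.5 CPM. In those of 377P it had 3 UMIs (19.2 CPM, 3.95 to 56.0).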
